A study of Mus musculus with 2 samples.

Results

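The mitochondrial carriers of the Slc25 family were followed between hepatocytes that carried the phosphomimetic ezrin mutant EzrinT567D and hepatocytes sorted as negative for it. Members were all probe sets annotated to a single gene whose symbol is Slc25a followed by a number. This gave 93 of the 45101 probe sets on the array and 44 of the 18193 genes with a probe set of their own.

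Slc25 proteins are nuclear-encoded, and nearly all sit in the inner mitochondrial membrane, where they exchange metabolites between the matrix and the space that faces the cytosol. In hepatocytes they feed the urea cycle with ornithine, pass reducing equivalents inward through the malate-aspartate shuttle, export citrate for lipid synthesis, import acylcarnitines for fatty acid oxidation, and exchange ADP and phosphate for ATP. A few members lie in the outer mitochondrial membrane or in peroxisomes, and the substrate of some is debated.

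Both groups came from male FVB mice of 6 to 8 weeks that received a rapid, high-volume tail vein injection of 2 plasmids in 2 ml of saline. These were 10 µg of the plasmid named PT3EF5α EzrinT567D and 0.8 µg of pCMV/SB, and ezrin is the protein that ties the plasma membrane to cortical actin. After 1 week hepatocytes were released with collagenase and sorted by GFP, and the labels call GFP- cells EzrinT567D negative and GFP+ cells EzrinT567D positive. The negative cells were therefore exposed to the same injection, and no uninjected group is analysed here. One array (Affymetrix Mouse Genome 430 2.0) was made from 6 µg of total RNA per group, and the number of mice behind each array is not given in the sources used here. The labels conflict on diet and time. The growth protocol names chow only, but the free-text description of each sample speaks of 2 months and pairs chow with the negative cells and fast food with the positive cells. If that text holds, diet and sort label cannot be told apart.

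Each group had a single array, so the groups could not be tested against each other, and every comparison below sets 1 array against the other without replicate error. Values are signals of the brightest probe set of a gene, and ratios are positive over negative, on the log2 scale. A gene counted as measured in both arrays if its signal exceeded a background floor of 272.4 (negative array) or 333.98 (positive array). A probe set's affinity sets its signal, so levels were not compared between genes. The spread that these arrays do offer is technical: over 3141 genes, the difference in log2 ratio between a gene's brightest and next brightest probe set had an SD of 0.415, which corresponds to 0.293 for a single ratio. It leaves out the spread between animals and any error that the probe sets of an array share.

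The sorted cells carried the signals of hepatocytes. All 9 hepatocyte markers exceeded the floor in both arrays, with a range of log2 ratios from -0.37 to 0.03, and all 5 cholangiocyte markers lay below it in both. Of the markers of other cells, 3 of 10 for Kupffer cells, 7 of 10 for sinusoidal endothelium, 5 of 8 for stellate cells and 0 of 6 for blood cells were measured in both arrays. Their summed signals were 3159.5 and 2454.0 for Kupffer cells, 5601.8 and 5820.1 for endothelium, and 3080.9 and 3035.3 for stellate cells (negative, then positive). In bulk RNA of this kind, fewer cells of a type and less RNA per cell cannot be told apart. The Ezr probe sets read 135.3 and 15.7 (1450850_at) and 7.6 and 13.6 (1456725_x_at), below the floor in both arrays, and gave no check of the sort labels.

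Slc25 genes differed between the 2 arrays in both directions, by less than 2-fold where measured. Of the 44 genes, 31 were measured in both arrays (70.5%, against 45.4% of all genes), 4 exceeded the floor in the negative array only and 9 in neither. All 18193 genes leaned the same way, with 1202 above the floor in the negative array only and 434 in the positive array only. These counts depend on the floors, of which the positive was the higher (333.98 against 272.4). The median signal of all probe sets was 187.6 in the positive and 174.2 in the negative array. Of the 31, 16 were higher and 15 lower in the positive array, where 50.0% of all 8268 measured genes were higher and 50.0% lower. The ratio was within 0.3 of 0 for 16 of the 31 (51.6%), against 64.9% of all measured genes. At 1.5-fold or more (a log2 ratio of 0.585), 3 carriers were higher, the mitoferrin Slc25a37, the S-adenosylmethionine carrier Slc25a26 and the uncoupling protein relative Slc25a30. This is 9.68% of the measured carriers, against 5.52% of all measured genes. The negative signal of Slc25a26, 304.8, was below the positive floor of 333.98. With 1 floor for both arrays it was not measured, and 2 of 28 carriers were higher at 1.5-fold. The aspartate/glutamate carrier Slc25a13 and the NAD+ carrier Slc25a51 were lower by that amount, 6.45% against 4.02% of all genes. No carrier measured in both arrays reached 2-fold, which 1.0% of all genes did on the higher and 0.617% on the lower side. The ratios ran from -0.77 to 0.74.

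**Figure D1:**
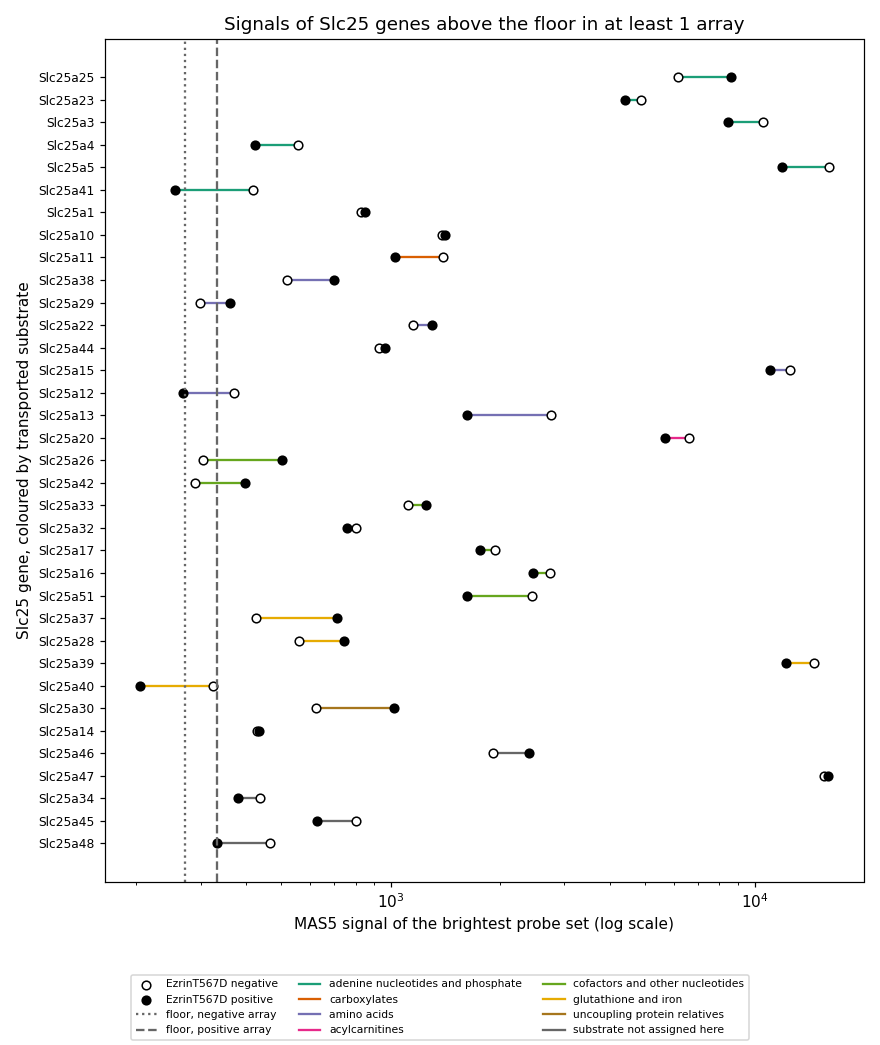
Signals of the brightest probe set of the 35 Slc25 genes above the floor in at least 1 array (x axis, MAS5 signal, log scale), grouped by transported substrate (line colour), in EzrinT567D-negative (open) and -positive hepatocytes (filled), 1 array each, with the floor of each array as a vertical line. Slc25a13 moves from 2748.1 to 1616.4 and Slc25a37 from 426.4 to 711.7, while the points of Slc25a1, Slc25a10 and Slc25a47 nearly coincide.

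The median log2 ratio of the 31 carriers was 0.02, beside -0.00 for all genes, and its sign depended on the settings: it was -0.05 after quantile normalization, -0.07 after loess, -0.11 with 1 floor for both arrays and -0.14 without a floor. Ratios in these arrays also moved with signal, as they did for all genes. Among genes with a mean signal up to 1000, the median was 0.17 for 14 carriers and 0.09 for all 4339 genes. From 1000 to 10000 it was -0.15 for 13 carriers and -0.05 for all 3580 genes, and above 10000 it was -0.22 for 4 carriers and -0.13 for all 349 genes. Carriers with bright probe sets were thus mostly lower and those with dim probe sets mostly higher, the same order as in the whole transcriptome. The positive floor was above the negative one, however. Near the floors, genes higher in the positive array therefore counted as measured in both more easily than lower ones. The negative signals of Slc25a26, Slc25a29 and Slc25a42 lay between the floors. The size of this effect, and the part of the trend with signal in single ratios, was not tested.

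**Figure D2:**
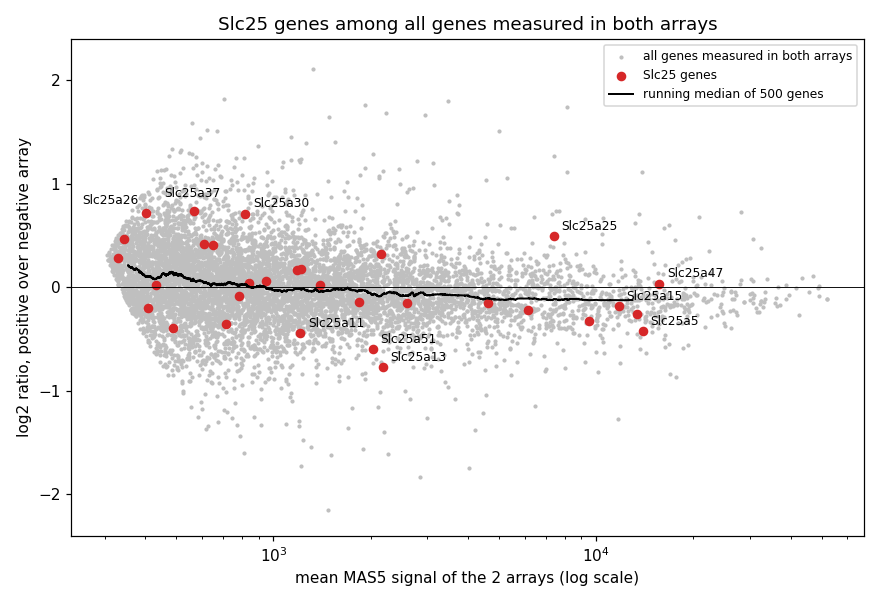
Log2 ratio (positive over negative) against the mean signal of both arrays (log scale) for the 8268 genes measured in both (grey) and the 31 Slc25 genes among them (red), with the running median of 500 genes in black. The running median falls from above 0 at low to below 0 at high signals, and Slc25a25 and Slc25a13 lie on opposite sides of it among bright genes.

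Some carriers of adenine nucleotides and phosphate serve the export of ATP made by oxidative phosphorylation, and others exchange ATP-Mg for phosphate. This group included 4 lower and 1 higher gene among the 5 of 8 measured in both arrays. The median log2 ratio of these 5 genes was -0.32, and it was -0.24 after quantile normalization and -0.22 after loess. Without probe sets of types that can be shared with other transcripts, 1 gene was higher and 2 lower, with a median of -0.15. With the 99th percentile floor 1 was higher and 3 lower, with a median of -0.24. Slc25a5 (ANT2), which exchanges matrix ATP for cytosolic ADP, read 16003.9 in negative and 11910.5 in positive cells, 1.34-fold lower. All 8 of its probe sets were lower, with log2 ratios from -0.65 to -0.405. Of these, 7 are of types whose probes can be shared with other transcripts, and the remaining probe set, 1438545_at, read 1917.6 and 1313.5 (-0.55). The RefSeq gene table lists 1 pseudogene of Slc25a5, so signal from a near-identical copy cannot be separated here.

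Slc25a4 (ANT1), the form best known from heart and muscle, read 555.2 and 422.7, 1.31-fold lower, and its second measured probe set read 548.7 and 422.4. Slc25a3, which imports the phosphate that ATP synthase needs, read 10543.6 and 8429.9 in its only probe set above the floor, 1.25-fold lower. Slc25a23, a calcium-regulated carrier that exchanges ATP-Mg for phosphate and so sets the size of the matrix adenine nucleotide pool, read 4884.3 and 4393.9 (-0.15). The ratios of Slc25a5, Slc25a4 and Slc25a3 each exceeded the technical SD of 0.293 as deposited, whereas that of Slc25a23 was within it. Slc25a3 also fell within it after quantile normalization (-0.24) and loess (-0.22). Slc25a41, the calcium-independent relative, read 417.5 and 255.8, above the floor in the negative array only, at least 1.25-fold lower. Slc25a24 and the germ cell form Slc25a31 were below the floor in both arrays.

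Slc25a25, another calcium-regulated ATP-Mg/phosphate carrier, went the opposite way to its group. Its brightest probe set (1447856_x_at) read 6135.4 and 8625.7, 1.41-fold higher (0.49), and a probe set with its own probes (1424735_at) read 1839.7 and 3112.6, 1.69-fold higher (0.76). Its remaining probe set was below the floor in both arrays. The log2 ratio was 0.57 after quantile normalization and 0.59 after loess. RefSeq lists 3 starts for the gene (GRCm38.p6), and the stretch before the most downstream of them (chr2:32424067-32424316, minus strand) is shown because it holds the full palindrome of the cAMP response element, the site bound by CREB, TGACGTCA. Capitals mark that palindrome and the CCAAT box (CCAAT, here read as ATTGG from the other strand) in the 250 bases before the start:

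Slc25a25, start 3: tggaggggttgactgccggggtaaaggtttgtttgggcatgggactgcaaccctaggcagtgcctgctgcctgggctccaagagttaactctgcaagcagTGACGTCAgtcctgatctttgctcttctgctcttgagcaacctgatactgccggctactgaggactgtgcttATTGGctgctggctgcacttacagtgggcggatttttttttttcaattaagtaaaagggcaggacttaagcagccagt

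The palindrome was present in 2 of the 43 stretches of the same length listed for 34 of the 44 carriers, those of Slc25a25 and Slc25a36, and in 1.55% of all 32851 stretches. Slc25a36, a pyrimidine nucleotide carrier, was below the floor in both arrays, at 120.4 and 167.5. A match of letters is a description of the sequence, and which start these cells used was not measured.

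Carboxylate carriers showed 1 gene apart from 0. Slc25a11, the 2-oxoglutarate/malate carrier that forms the malate arm of the malate-aspartate shuttle, read 1393.8 and 1028.1, 1.36-fold lower (-0.44). The citrate carrier Slc25a1, which supplies cytosolic acetyl-CoA for lipid synthesis, read 828.5 and 851.2 (0.04). The dicarboxylate carrier Slc25a10, which exchanges malate or succinate for phosphate, read 1382.6 and 1408.7 (0.03). Its second probe set differed, at 381.0 and 676.7 (0.83), the second largest gap between probe sets of 1 carrier, so its ratio depends on the probe set.

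Among the amino acid carriers, 6 of 9 were measured in both arrays, 4 higher and 2 lower. With 1 floor for both arrays, 3 were higher and 2 lower. Slc25a13 (citrin), the main hepatic exchanger of matrix aspartate for cytosolic glutamate, had the lowest ratio of all measured carriers. Its signal was 2748.1 in negative and 1616.4 in positive cells, 1.70-fold lower (-0.77), in its only probe set. The log2 ratio was -0.74 after quantile normalization and -0.73 after loess. Its paralogue Slc25a12 (aralar), the form best known from brain and muscle, read 371.0 and 269.0, above the floor in the negative array only, at least 1.11-fold lower. Citrin and Slc25a11 together form the carrier pair of the malate-aspartate shuttle, and both were lower.

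The 250 bases before the start of Slc25a13 (chr6:6217174-6217423, minus strand, GRCm38.p6, from RefSeq) are shown beside those of Slc25a30 (chr14:75787038-75787287, minus strand), because these carriers were at opposite ends of the ratios and both have an entry, which Slc25a37, Slc25a26 and Slc25a51 do not. Capitals mark the CCAAT box on either strand:

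Slc25a13: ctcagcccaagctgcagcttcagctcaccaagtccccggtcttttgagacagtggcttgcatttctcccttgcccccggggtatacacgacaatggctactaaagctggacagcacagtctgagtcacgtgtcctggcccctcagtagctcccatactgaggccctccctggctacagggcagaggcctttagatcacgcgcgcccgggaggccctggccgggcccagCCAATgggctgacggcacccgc

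Slc25a30: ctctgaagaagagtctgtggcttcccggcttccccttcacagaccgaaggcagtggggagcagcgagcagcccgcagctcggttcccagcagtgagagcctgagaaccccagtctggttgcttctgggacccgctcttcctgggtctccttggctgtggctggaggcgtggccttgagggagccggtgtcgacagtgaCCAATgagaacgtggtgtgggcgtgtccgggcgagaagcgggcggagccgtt

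Each of these stretches held 1 CCAAT box and no cAMP response element. The CCAAT box was present in 20 of 43 stretches of the carriers (46.5%) and in 33.8% of all stretches. Of other motifs searched on both strands, the E-box CACGTG was present in 8 of 43 (18.6%, against 6.02% of all) and the GC box GGGCGG in 32 of 43 (74.4%, against 32.7%).

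Slc25a15 (ORNT1), which brings ornithine into the matrix for the urea cycle and releases citrulline, read 12528.1 and 11024.6, 1.14-fold lower (-0.18). Its other probe set read 2340.1 and 2175.1 (-0.105), and both ratios were within the technical SD. The paralogue Slc25a2 was below the floor in both arrays. Slc25a38, the glycine carrier that supplies haem synthesis, read 519.8 and 696.7, 1.34-fold higher (0.42). Slc25a29, a carrier of basic amino acids, read 298.3 and 362.4 (0.28) from signals near the floor, and its second measured probe set gave 283.9 and 357.9.

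The glutamate carrier Slc25a22 read 1147.2 and 1294.8 (0.18), while its paralogue Slc25a18 was below the floor. Slc25a44, the carrier of branched-chain amino acids, read 927.2 and 966.2 (0.06), but its other probe sets were at -0.09 and -0.04, and the mean over all was -0.02. It thus had no stable direction. Slc25a20, the carnitine/acylcarnitine carrier on which the mitochondrial oxidation of long-chain fatty acids depends, read 6611.4 and 5673.9, 1.17-fold lower (-0.22), and 2229.5 and 2071.4 in its other probe set.

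**Figure D3:**
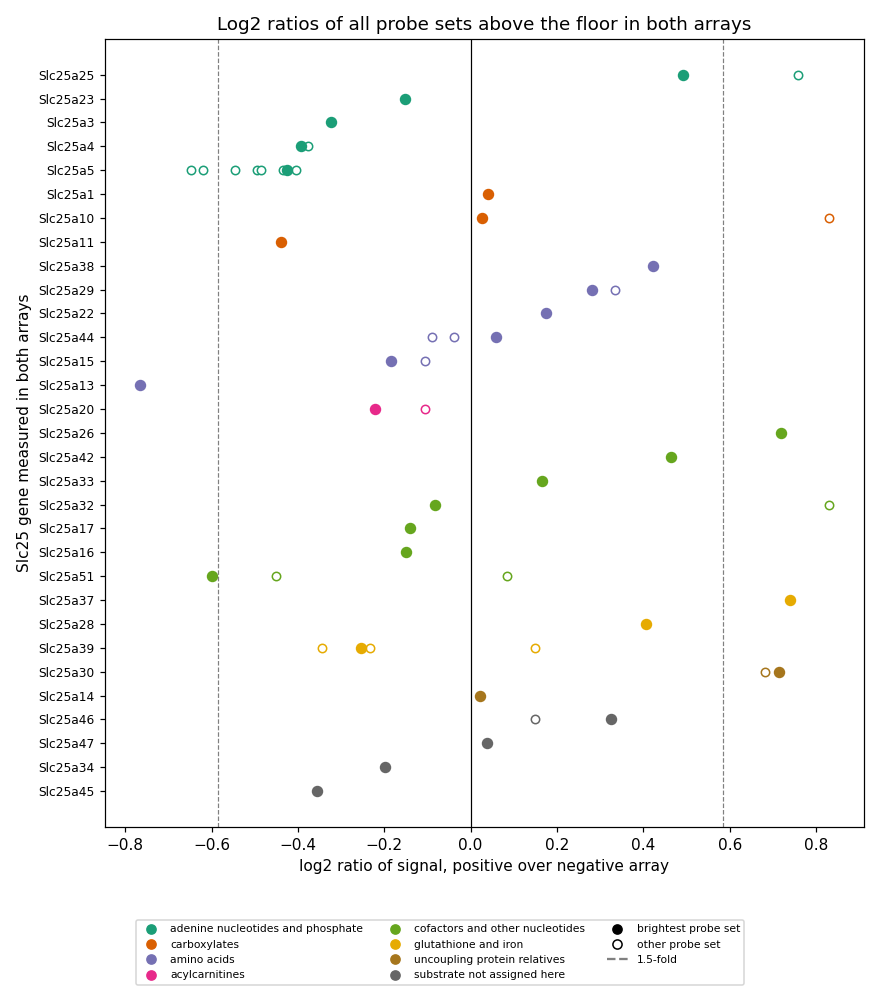
Log2 ratio (positive over negative) for the 54 Slc25 probe sets measured in both arrays, by gene and substrate group (colour), with the brightest probe set filled, others open and 1.5-fold as dashed lines. The 8 probe sets of Slc25a5 all lie below 0, those of Slc25a10 and Slc25a32 lie far apart, and Slc25a14, at 0.02, turns to -0.08 after quantile normalization and -0.12 after loess.

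Cofactor and other nucleotide carriers split, with 3 higher and 4 lower among 7 of 8 genes. With 1 floor for both arrays, 1 was higher and 4 were lower. Slc25a51, which carries NAD+ into the matrix, read 2448.1 and 1616.6, 1.51-fold lower (-0.60). A second probe set was also lower, at 1434.2 and 1049.3 (-0.45), and the dimmest was not, at 467.8 and 496.3 (0.09). The ratio was just past 1.5-fold and fell short of it after quantile normalization (-0.57), after loess (-0.56) and as the mean over probe sets (-0.32). Slc25a26, which imports the methyl donor S-adenosylmethionine, read 304.8 and 501.3, 1.64-fold higher (0.72). Its negative signal lay between the 2 floors, its probe set can bind other transcripts, and after loess the ratio was 0.54.

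Slc25a42, which imports coenzyme A in exchange for adenine nucleotides, read 288.8 and 398.1, 1.38-fold higher (0.46), again from near the floor. Slc25a33, a pyrimidine nucleotide carrier, read 1117.9 and 1253.1 (0.165). Slc25a16, linked to matrix coenzyme A, read 2735.1 and 2464.2 (-0.15), and the peroxisomal carrier Slc25a17 read 1936.8 and 1757.2 (-0.14). All 3 were within the technical SD. The folate and FAD carrier Slc25a32 read 802.7 and 758.0 (-0.08) in its brightest probe set, which can bind other transcripts, but 342.4 and 608.7 (0.83) in a probe set of its own. Its direction therefore depends on the probe set, and the mean over probe sets was 0.37.

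Both mitoferrins, which import iron for haem and iron-sulphur clusters, were higher. Slc25a37 (mitoferrin 1), the form best known from erythroid cells, read 426.4 and 711.7, 1.67-fold higher (0.74), the highest ratio of the measured carriers. Slc25a28 (mitoferrin 2), the form found in most tissues, read 560.6 and 742.1, 1.32-fold higher (0.405). Each has 1 probe set annotated to it alone. Both probe sets end in _a_at, so neither mitoferrin was measured when the _s_at, _x_at and _a_at types were left out. Of 6 blood cell markers, 5 were below the floor of each array, among them Hba-a1 (222.7 and 62.9) and S100a8 (23.6 and 253.1), and Cd79a exceeded it in the negative array only (274.0 and 114.5). Their summed signal was 767.1 and 683.4, and their part in the ratios of the mitoferrins was not tested.

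The glutathione carrier Slc25a39 read 14528.6 and 12185.2, 1.19-fold lower (-0.25). Of its 4 measured probe sets 3 were lower, from -0.34 to -0.23, and 1 was higher (0.15). Its paralogue Slc25a40 read 325.3 and 204.5, above the floor in the negative array only. The positive floor exceeded its negative signal, so no bound on its ratio can be given.

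Of the uncoupling protein relatives, Slc25a30 (KMCP1) read 621.3 and 1018.3 in a probe set that can bind other transcripts, 1.64-fold higher (0.71). A second probe set above both floors read 392.2 and 628.9 (0.68), and probe sets 1420835_at (270.9 and 492.4) and 1425949_at (265.5 and 813.6) exceeded the floor in the positive array only. All 5 of its probe sets read higher in the positive array, 1 of them from below the floor in both. Slc25a14 (UCP5) read 428.7 and 435.3 (0.02, and -0.08 after quantile normalization and -0.12 after loess), and Slc25a27 (UCP4), a neuronal form, was below the floor in all 4 probe sets. The related Ucp1, the uncoupler of brown fat, read 228.1 and 374.3, above the floor in the positive array only, and Ucp3 was below the floor in both.

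Carriers with no substrate assigned here lay on both sides of 0, from -0.355 to 0.325 where measured in both arrays. Slc25a47, known for its restriction to hepatocytes, read 15499.4 and 15897.9 (0.04). Slc25a46, an outer membrane protein of mitochondrial fusion and fission, read 1909.4 and 2392.0, 1.25-fold higher (0.325), with 834.3 and 925.3 in its other probe set. Slc25a45 read 802.2 and 627.0 (-0.355), and Slc25a34 read 437.8 and 381.4 (-0.20). Slc25a48 read 466.6 and 333.0, just under the positive floor and at least 1.40-fold lower. Neither array had Slc25a35, Slc25a53 or Slc25a54 above its floor, and Slc25a21, Slc25a43 and Slc25a52 are not analysed here.

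Agreement between probe sets differed by gene. Of 13 carriers measured in both arrays by 2 or more probe sets, 9 had all of them on the same side of 0 and 4 (Slc25a32, Slc25a39, Slc25a44 and Slc25a51) did not. The 2 brightest probe sets differed by a median of 0.115 for these 13, against 0.255 for all 3141 genes. The other 18 measured carriers, among them Slc25a13, Slc25a37 and Slc25a26, rest on 1 probe set.

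Several lists of enzymes and complexes that work with the carriers held more lower than higher genes, as did bright genes in general: 274 of 349 genes with a mean signal above 10000 and 2118 of 3580 from 1000 to 10000 were lower. All 4 malate-aspartate shuttle enzymes were lower, with a median of -0.20 (-0.10 after quantile normalization, -0.09 after loess and -0.53 over 3 genes without shared probe sets), and 3 of 4 were lower as the mean over probe sets. The list was led by the cytosolic aspartate aminotransferase Got1 (2847.5 and 1417.7, 2.01-fold lower), while Mdh2, Got2 and Mdh1 were at -0.24 to -0.16. Of 6 urea cycle enzymes 4 were lower, with a median of -0.51, led by Asl (12987.9 and 7345.6, 1.77-fold), Arg1 (14825.4 and 8949.9, 1.66-fold) and Otc (17309.4 and 11148.8, 1.55-fold). The ornithine carrier Slc25a15, at 1.14-fold, was nearer to 0 than these 3. ATP synthase subunits and their inhibitor were lower in 13 of 15 genes, with a median of -0.28 (-0.17 after quantile normalization and after loess). Atp5g3 (20009.9 and 13669.1) and Atp5l (7439.3 and 5449.2) had the lowest ratios, and the inhibitor Atpif1 (3053.9 and 3976.1) was higher. Subunits of complexes III and IV were lower in 14 of 17 measured genes, with a median of -0.20 (-0.14 after quantile normalization and -0.10 after loess), led by the Rieske protein gene Uqcrfs1 (5040.6 and 3048.3). The values of Slc25a5, Slc25a4 and Slc25a3 lay in the range of the ATP synthase list, from -0.55 to 0.38. That range spans 0 and also holds carriers near 0, such as Slc25a1 (0.04), so it does not set these carriers apart.

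Of the 7 enzymes that use exported citrate, 3 were higher, 3 lower and 1, Acacb (382.5 and 244.0), above the floor in the negative array only. Without shared probe sets 1 was higher and 5 lower, with a median of -0.24. The ATP-citrate lyase Acly read 8873.6 and 4019.2, 2.21-fold lower, while the citrate carrier Slc25a1 was at 0.04. Genes of carnitine-dependent fatty acid entry had a median of -0.15 over 8 genes, 6 lower and 2 higher, beside -0.22 for Slc25a20. After quantile normalization the median was -0.04 with 5 lower and 3 higher, and after loess it was -0.05. Cpt2, which reforms acyl-CoA in the matrix, read 3109.5 and 2282.6, and the outer membrane enzyme Cpt1a read 4914.9 and 4803.0. The machinery that imports carrier proteins into the inner membrane had a median of -0.14 over 11 genes, 8 lower and 3 higher, and -0.01 as the mean over probe sets. Its small chaperones Timm10 (3357.9 and 2465.4) and Timm8b (1458.0 and 1106.8) were lower, and the channel of the outer membrane, Tomm40 (407.1 and 683.1), was higher.

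Transporters of the inner membrane that are not Slc25 proteins showed 5 higher and 5 lower genes among 10 measured, but 3 higher and 7 lower after quantile normalization and 2 higher and 8 lower after loess. Sfxn1, a mitochondrial serine transporter, read 4213.1 and 1760.5, 2.39-fold lower, beyond any Slc25 gene measured in both arrays. Mpc1, a subunit of the pyruvate carrier, read 2482.1 and 2953.0 (0.25), and the calcium uniporter Mcu read 790.4 and 646.1 (-0.29). Mtch2, an outer membrane relative of the Slc25 family, read 3542.7 and 2983.6, and Mtch1 read 478.9 and 531.6.

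**Figure D4:**
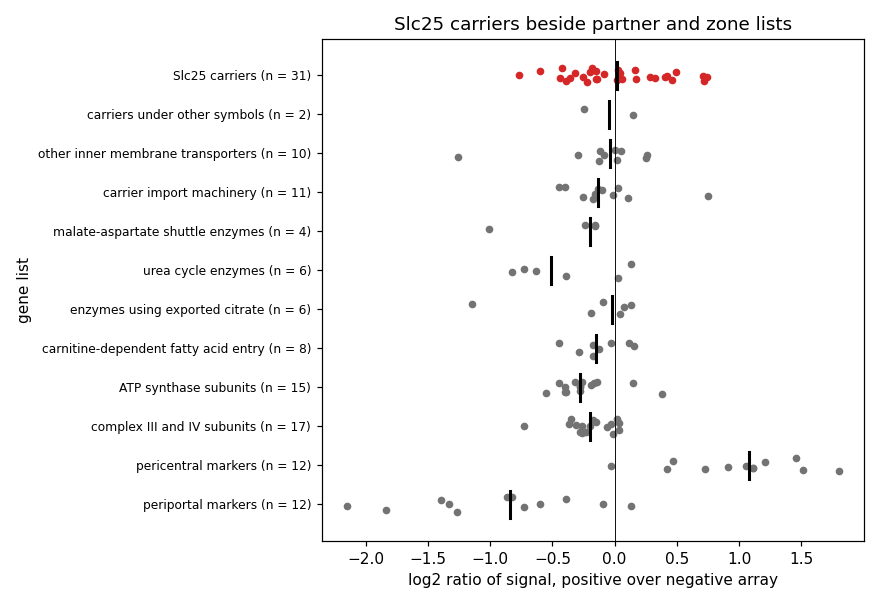
Log2 ratios of genes measured in both arrays (points) and their median (bar) for the Slc25 carriers (red), for lists of genes that work with them and for markers of liver zones, with n genes per list. The carriers spread on both sides of 0 with a median of 0.02, ATP synthase subunits lie mostly below 0, and the zonal markers lie farthest out in opposite directions.

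Markers of the zones of the liver lobule moved with the comparison. Pericentral markers were higher in 11 of 12 measured genes, with a median of 1.08, and periportal markers were lower in 11 of 12, with a median of -0.85. The periportal list shares Asl, Arg1, Ass1 and Cps1 with the urea cycle enzymes above, so these lists are not independent. Gulo (1549.4 and 5401.6), Lect2 (2590.8 and 7389.3) and Tbx3 (604.3 and 1659.0) had the largest pericentral ratios. Aldh1b1 (2408.2 and 540.8), Hal (4455.1 and 1248.3) and Cdh1 (3200.8 and 1216.7) had the lowest periportal ones. Their part in the ratios of the carriers was not tested. The range of the carriers, from -0.77 to 0.74, was narrower than that of either marker list.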

How the data were processed

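Per the labels' protocols, biotinylated cRNA from sorted hepatocytes was hybridised to Affymetrix arrays, and per the submitters' processing notes the authors deposited MAS5 signal intensities on a linear scale. Both arrays had a 2% trimmed mean of 500, so a shift of all transcripts cannot be seen. Software version and detection calls: not given in the sources used here. The arrays' number, 1 per group, limits the precision.

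Of 45101 probe sets, 34945 carried 1 gene symbol, 932 several (1 of these names an Slc25 gene, and it was not used), 9160 none, and 64 were controls. Symbols of all 44 carriers matched a RefSeq gene table (GRCm38.p6) by Entrez ID. The floor of each array was the 95th percentile over 87 probe sets of chemosensory receptor genes (olfactory, vomeronasal, taste, trace amine), which hepatocytes are not known to use. The probe set with the highest mean signal stood for its gene. A gene above the floor in 1 array has a bound against the other array's floor. These bounds depend on the floor. At the 99th percentile the positive floor was 424.24, above the negative signals of Slc25a12 (371.0) and Slc25a41 (417.5). These genes would then have no bound, and that of Slc25a48 (466.6) would be smaller. Log2 ratios were computed with pandas 2.3.3, loess with statsmodels 0.14.6 (fraction 0.4), and the scripts were tested on simulated data. The simulated shifts were in genes well above the floor, so bounds and shifts of genes near the floor were not checked. All carriers above the floor in at least 1 array are named, and of other lists mainly the genes with the largest ratios. A few further partners were named after their values were seen. Members, substrate groups, lists and promoter motifs were chosen with earlier results of these data known. Promoter sequences are from RefSeq.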

Additional observations from a re-analysis of the deposited data

How the results depend on the processing

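The alternatives were the 99th percentile floor, 1 floor for both arrays, no floor, quantile normalization, loess, the mean over probe sets, leaving out probe sets ending in _s_at, _x_at or _a_at and, chosen after seeing the data, genes whose mean signal exceeds the mean floor. The median log2 ratio of the carriers, 0.022, became -0.112 with 1 floor, -0.139 without a floor, -0.054 after quantile normalization, -0.071 after loess and -0.112 with the mean-signal filter. Leaving out the floor added 13 genes, 9 below both floors and 4 above the negative floor only. In that setting 24 genes were lower, 8 of them at 1.5-fold, and 6 were higher at 1.5-fold. The count lower at 1.5-fold was 1 after quantile normalization, against 3 higher, and 1 with the mean over probe sets. The count higher at 1.5-fold was 2 with the 99th percentile floor, with 1 floor and without shared probe sets. It was 4 with the mean over probe sets. The causes of these changes were not tested. No carrier past 1.5-fold changed sign under any alternative that measured it. Without shared probe sets, however, none of the 3 carriers higher at 1.5-fold (Slc25a37, Slc25a26 and Slc25a30) was measured in both arrays. The 2 carriers higher by that amount there were Slc25a25 (0.759) and Slc25a32 (0.83). Of single ratios, Slc25a10 (0.428) and Slc25a32 (0.374) moved by more than the technical SD with the mean over probe sets, and Slc25a32 (0.83) without shared probe sets. No paired analysis was possible because each group has 1 array.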
